A study of Mus musculus with 12 samples.

Results

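The nuclear genes for the subunits of respiratory complex I were described in mouse cortex, as the 38 genes whose symbol begins with Nduf, once the assembly factors (Ndufaf) and the pseudogene and related-sequence entries were set aside. They were 38 of the 41388 genes in the deposited tables, and all 38 were abundant enough to be tested, among 17441 tested genes. The choice used the gene symbols alone and no measured value. Poly(A) RNA-seq had been made from the cortex of 12 adult C57Bl/6 mice in 4 groups of 3. KI mice carry a knock-in that makes exon 5 of Grin1, the gene of the obligatory NMDA receptor subunit, constitutive (Grin1-exon5+/+), and KI_WT mice are wild types of that line. KO mice lack the exon (Grin1-exon5-/-), and KO_WT mice are the wild types of the knockout line. The labels name no treatment and no sex.

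Complex I, the NADH:ubiquinone oxidoreductase, takes electrons from NADH and passes them to ubiquinone while it pumps protons across the inner mitochondrial membrane. Its hydrophilic arm holds the flavin, the iron-sulfur clusters and the quinone site in core subunits that are conserved from bacteria. Its membrane arm is built around core subunits encoded by mitochondrial DNA, and the accessory subunits, all encoded in the nucleus, surround both arms. Neurons depend on this chain for most of their ATP. By role the genes comprised 7 core subunits of the hydrophilic arm, 9 accessory subunits of that arm, 9 of the proximal membrane arm and 10 of the distal membrane arm. Ndufab1, the mitochondrial acyl carrier protein, sits in both arms. Ndufa4 carries the old family name but is now placed in complex IV, and Ndufa4l2 is its paralogue. Ndufb1 was not analysed here.

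The 38 genes lay on 15 chromosomes of GRCm38 (GENCODE annotation), and 2 of them, Ndufa1 and Ndufb11, on the X chromosome. Ndufa8 and Ndufs3 shared chromosome 2 with Grin1, at distances of 10.7 Mb and 65.6 Mb. Exons of 21 genes overlapped no other annotated gene. For 6 genes the overlap covered more than 10% of the exonic length, with the largest shares in Ndufb6 (39.0%, 257 bases shared with Smim27) and Ndufa13 (375 bases shared with Tssk6). The strand setting of the counting is not given in the sources used here, so reads in these overlaps can belong to either gene. These shares refer to GENCODE exons. The deposited RPKM values imply other lengths for some genes, such as 651 bases for Ndufb9 against 1031 exonic bases in GENCODE. The overlap of the exons that were counted can therefore differ. Ndufb4, Ndufs6, Ndufa11 and Ndufab1 also have processed copies in the genome, and how reads were split between near-identical copies is uncertain.

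The starts of these genes are shown because AAGATGGC, the letters bound by the factor YY1, stood at nearly the same place in 7 of them. RefSeq promoter windows (GRCm38.p6, 250 bases before the start to 50 after it) were given for 33 of the 38 genes. The 8 letters, searched on both strands, were present in the windows of 7 of 33 genes (21.2%), compared with 3.19% of all 27025 genes with a window and 4.53% of the 12103 that were tested here. All 7 matches were on the coding strand, and their first base lay 23 to 39 bases after the start. The letters contain an ATG, and the same word is the core of a translation initiator found in very short 5′ leaders. In the stretches printed 5′ to 3′ on the coding strand, capitals mark the match.
Ndufs7, core subunit beside the quinone site (chr10:80249462-80249491, plus strand): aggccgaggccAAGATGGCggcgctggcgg
Ndufs4, accessory hydrophilic arm (chr13:114388045-114388074, minus strand): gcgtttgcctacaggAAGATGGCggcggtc
Ndufs6, accessory hydrophilic arm (chr13:73328433-73328462, minus strand): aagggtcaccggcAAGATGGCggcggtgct
Ndufa9, accessory hydrophilic arm (chr6:126849097-126849126, minus strand): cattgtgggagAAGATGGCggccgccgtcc
Ndufa3, proximal membrane arm (chr7:3617384-3617413, plus strand): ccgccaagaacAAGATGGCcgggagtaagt
Ndufc1, proximal membrane arm (chr3:51408915-51408944, minus strand): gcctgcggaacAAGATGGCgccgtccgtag
Ndufb8, distal membrane arm (chr19:44555393-44555422, minus strand): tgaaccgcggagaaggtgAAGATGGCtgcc

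Motifs of the other regulators named for this pathway were rarer among the genes. GCGCATGC, the core of the nuclear respiratory factor 1 site, was in the windows of 3 of 33 genes (9.09%), against 3.05% of all genes and 5.35% of tested genes. These were the windows of Ndufa8, an accessory subunit on the intermembrane side, Ndufa6, of the LYR protein family, and Ndufa11, a membrane protein of the proximal arm. In the first pair of them the letters were on the opposite strand and so appear as GCATGCGC, while in Ndufa11 the forward match overlaps a second one on the opposite strand.
Ndufa8 (chr2:36049328-36049357, minus strand): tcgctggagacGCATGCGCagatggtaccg
Ndufa6 (chr15:82354356-82354385, minus strand): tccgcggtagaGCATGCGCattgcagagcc
Ndufa11 (chr17:56717691-56717720, plus strand): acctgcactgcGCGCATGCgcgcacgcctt
ACTTCCGG, of the ETS family to which GABP belongs, was in the windows of 1 of 33 genes (3.03%), the core subunit gene Ndufs3. It was in 4.31% of all genes and 7.63% of tested genes. No AAGATGGC window held either of the other motifs. These matches describe letters and not bound sites.

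Libraries held 31790970 to 36514024 counts on genes, with 21927 to 22809 genes detected, and the Nduf genes together took 0.257% to 0.340% of the counts. Summed over exons, Grin1 did not separate the groups, with 294 to 334 CPM, counts scaled to a common library size, in KI, 299 to 333 in KI_WT, 269 to 340 in KO and 308 to 363 in KO_WT. A whole-gene value does not measure exon 5, so it does not check the genotypes. Markers of cortical excitatory neurons were abundant in every library, at a summed level of 2941 to 5011 CPM. Markers of neighbouring regions differed between libraries of the same group, as described beside the comparisons they move with. In bulk tissue, fewer cells of a type and less RNA per cell cannot be told apart.

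Levels of different genes were compared per length, in the authors' length-scaled values (RPKM, which divide each count by gene length and library total). The median over the 38 genes was 55.9 RPKM. Core subunits had a median of 50.5 RPKM, and the lowest of them was Ndufs1, the large iron-sulfur subunit, at 24.5. Its length in these values was 8086 bases, which lowers a value per length. Not divided by length, Ndufs1 had 188 to 236 CPM (counts scaled to library size). Accessory subunits of the hydrophilic arm had a median of 53.1 RPKM, between 16.4 for Ndufv3 and 89.2 for Ndufa9. The role medians were close together, and the spread was within each role. In the proximal membrane arm the median was 63.2 RPKM, between 19.7 for Ndufc1 and 105.5 for Ndufc2. In the distal arm it was 54.3, between 9.85 for Ndufb7 and 207 for Ndufb9. The length of Ndufb7 in these values was 4522 bases, which also lowers its value per length.

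Ndufa4 and Ndufb9 were the most abundant of the 38 genes in all 12 libraries, and Ndufa4l2 was the least abundant in each. Ndufa4 (chr6:11900292-11907497), the complex IV subunit, had 406, 426 and 396 RPKM in KI, 386, 483 and 446 in KI_WT, 491, 405 and 423 in KO, and 355, 382 and 409 in KO_WT. Ndufb9 (chr15:58933756-58939488), a distal arm protein of the LYR family, had 219, 253 and 219 RPKM in KI, 195, 235 and 197 in KI_WT, 236, 194 and 212 in KO, and 196, 189 and 203 in KO_WT. Its lowest library was thus above the median of every other gene in complex I. In GENCODE, however, 19.5% of its exonic length is shared with an overlapping annotated gene. At the other end, Ndufab1 (chr7:122085403-122101886) had 8.97, 10.6 and 8.53 RPKM in KI, 8.00, 8.67 and 9.29 in KI_WT, 9.46, 9.22 and 8.24 in KO, and 7.02, 8.12 and 8.36 in KO_WT. Its annotated exons are long, which lowers a value per length. Ndufa4l2 (chr10:127514967-127517154), known in other tissues as a target of hypoxia signalling, had 1.58, 1.32 and 1.37 RPKM in KI, 1.25, 1.58 and 1.17 in KI_WT, 1.52, 1.12 and 1.06 in KO, and 1.48, 1.10 and 1.05 in KO_WT. The groups overlapped for all 4 of these genes, and the median of Ndufa4l2, 1.28 RPKM, was far below the 8.60 RPKM of Ndufab1.

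**Figure D1:**
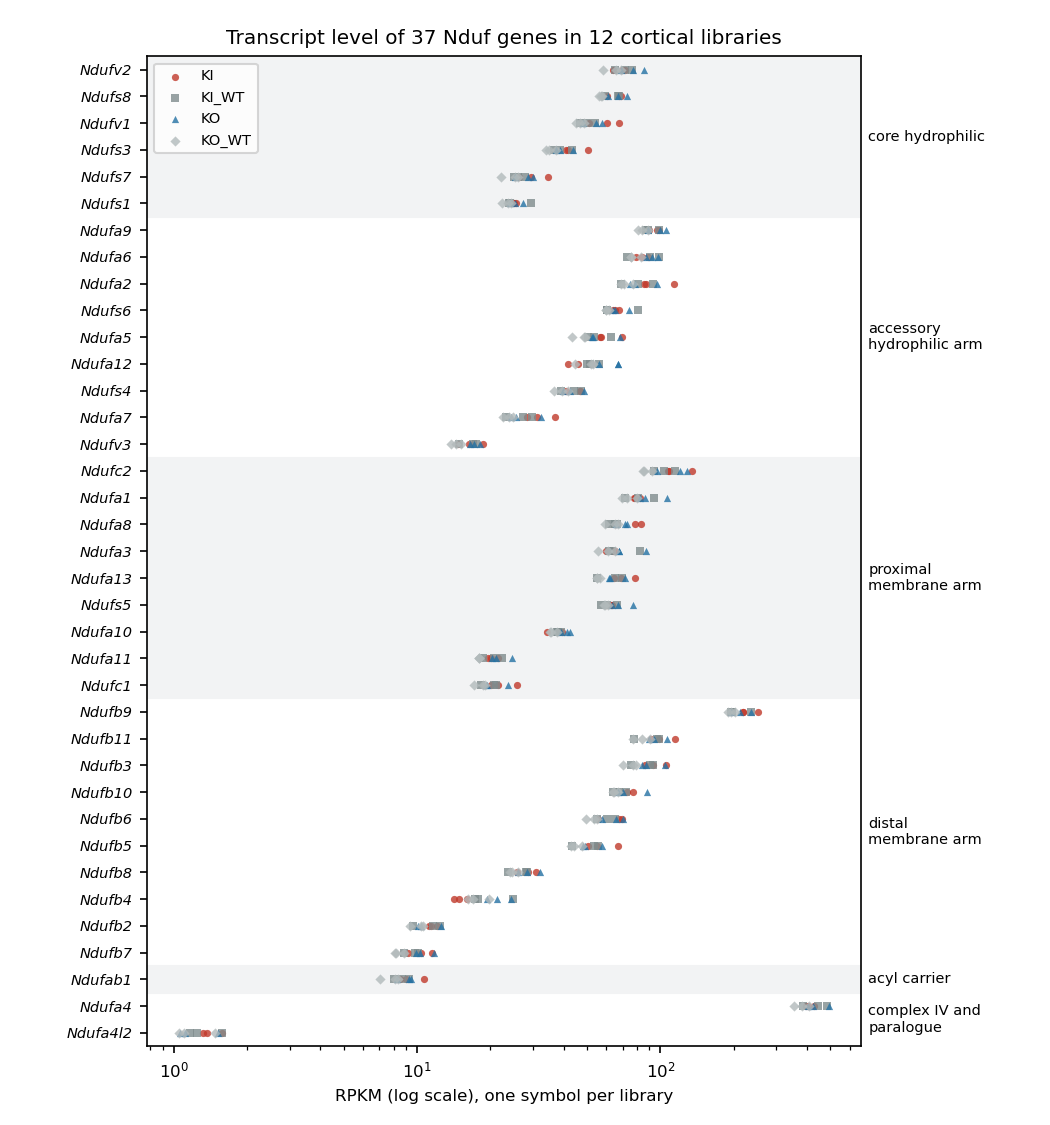
Deposited RPKM (log axis) of 37 of the 38 Nduf genes, ordered by role and by median, with 1 symbol per library coloured by group. The median over all 38 genes is 55.9 RPKM and the symbols of a gene lie close together, while Ndufa4 stands apart with a median of 407.7 and Ndufa4l2 with 1.28.

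Across libraries many of the genes were high or low together. Each gene was set against its own mean log2 CPM over 12 libraries, after scaling by trimmed mean of M values (TMM). For the KI libraries the median of these deviations over the 38 genes came to 0.050, 0.11 and -0.021, and for the KI_WT libraries to -0.085, 0.10 and 0.042. The KO libraries had medians of 0.17, -0.0076 and -0.037, and the KO_WT libraries of -0.16, -0.094 and -0.084. All 38 genes were above their own mean in KO 1. In the KO_WT libraries 2, 4 and 1 of 38 were above it, and in KI_WT 1 only 3 of 38. In KI_WT 2 and KI_WT 3, by contrast, 31 and 26 of 38 were above it. The biological coefficient of variation of the Nduf genes had a median of 9.17%, close to the 9.25% of the 6793 genes in the same abundance range and below the 12.8% of all genes. With the mean over the Nduf genes removed from each library, the largest remaining standard deviations were 0.26 for Ndufb4, 0.21 for Ndufa12 and 0.20 for Ndufa4l2. These are on the log2 scale, and that of Ndufa4l2 includes counting error, since it had only 34 to 53 counts in a library.

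**Figure D2:**
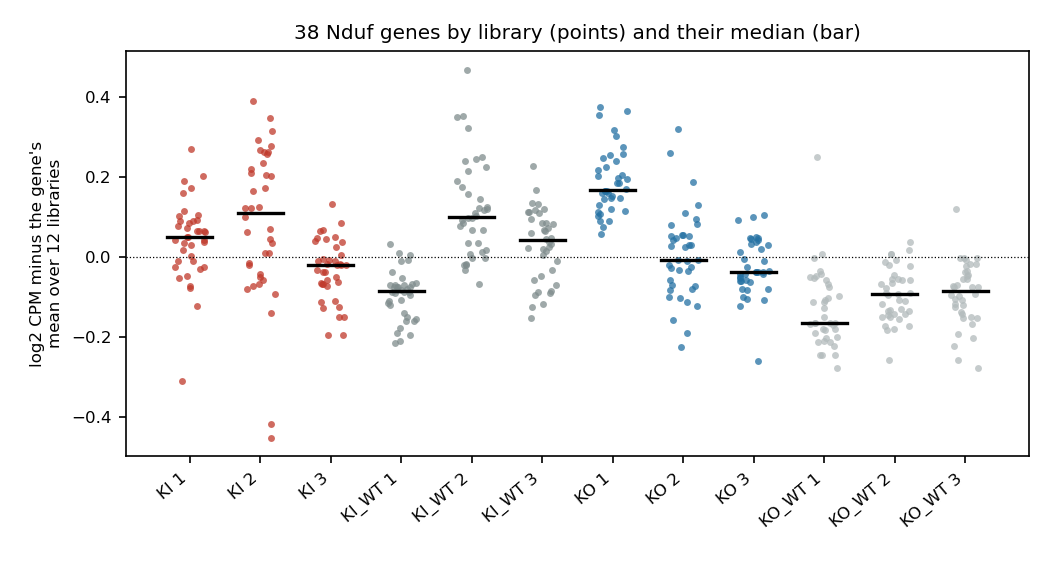
Log2 CPM of each Nduf gene minus its own mean over 12 libraries (points), by library, with the median over 38 genes as a bar. All points of KO 1 are above 0, most points of the 3 KO_WT libraries and of KI_WT 1 are below it, and the 2 lowest points of KI 2 are Ndufb4 and Ndufa12.

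The first comparison asked how the Nduf genes stood in cortex without Grin1 exon 5. No gene passed the adjusted threshold of 0.05 in KO against KO_WT, but the estimates nearly all lay on one side. The mean was higher in KO for 37 of 38 genes, and for all 36 that belong to complex I itself, where 52% of all tested genes were higher. The median log2 fold change was 0.15, beside 0.0076 over all genes. At an unadjusted p under 0.05, 11 of 38 were higher, with a background of 3.43% of all genes, and 0 were lower, with a background of 3.79%. The 3 KO libraries all lay above the 3 KO_WT libraries in 15 of 38, with a background of 5.95%, and below them in 0, with a background of 6.4%. By the same edgeR test 0.00573% of all genes, that is 1 gene, passed the adjusted threshold, and the smallest adjusted p of an Nduf gene was 0.678.

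The higher means were found in every role within complex I, with medians close to one another. Core subunits were higher in 7 of 7 with a median of 0.14, accessory subunits of the hydrophilic arm in 9 of 9 with 0.16, proximal arm subunits in 9 of 9 with 0.18 and distal arm subunits in 10 of 10 with 0.15. Ndufb7 (chr8:83566671-83571626), a distal arm subunit on the intermembrane face, had 51.7, 45.4 and 45.1 CPM in KO and 38.1, 40.6 and 37.5 CPM in KO_WT. All KO libraries were above all KO_WT libraries, and the estimate was 0.29 on the log2 scale (SE 0.085), with an edgeR adjusted p of 0.678. Ndufc2 (chr7:97400003-97407802), a membrane protein at the foot of the proximal arm, had 88.4, 94.7 and 73.5 CPM in KO and 66.7, 66.1 and 70.3 CPM in KO_WT. The groups did not overlap, although KO 3 came near the highest KO_WT library, and the log2 fold change was 0.34 (SE 0.10), the largest of the 38.

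Ndufa11 (chr17:56717767-56722141), whose protein lies in the proximal arm where complex I meets complex III, had 63.8, 54.8 and 54.8 CPM in KO and 49.6, 48.6 and 48.4 CPM in KO_WT. The wild types were close to one another and below all KO libraries, and the log2 fold change was 0.24 (SE 0.078). Ndufa12 (chr10:94198720-94221443), an accessory subunit near the NADH-oxidising end, had 87.4, 87.5 and 75.1 CPM in KO and 61.8, 71.9 and 70.0 CPM in KO_WT. Again the groups did not overlap, with a log2 fold change of 0.30 (SE 0.11). The adjusted p of all 3 genes equalled that of Ndufb7. Ndufa4l2 was the gene with the lower mean, at 1.42, 1.05 and 1.02 CPM in KO and 1.48, 1.08 and 1.02 CPM in KO_WT. Its groups overlapped, and its log2 fold change of -0.035 (SE 0.23) changed sign under several alternatives.

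KO 1 and the animal numbers bear on this result. KO 1, KO_WT 2 and KO_WT 3 carry animal numbers from an earlier range than the other animals. Within the early range (1 KO against 2 KO_WT) the median log2 difference was 0.29 with 38 of 38 higher, and within the late range (2 KO against 1 KO_WT) it was 0.11 with 34 of 38 higher. Without KO 1 the median over the genes was 0.089, with 36 of 38 higher and 4 at an unadjusted p under 0.05. Without KO_WT 1 that count was 3, and it was 7 without KO_WT 3. In a fit with a term each for the olfactory bulb, thalamic and choroid plexus marker levels, the median was 0.12 and 37 of 38 were higher, while 1 of 38 was higher at an unadjusted p under 0.05, against 1.17% of all genes in that fit, which leaves 5 residual degrees of freedom.

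Markers of other cells and regions also moved with these libraries. The summed level of 10 excitatory neuron markers was 2941, 3809 and 4441 CPM in KO and 4954, 4671 and 4261 CPM in KO_WT, with KO 1 lowest, and 7 of 10 had a lower mean in KO. The 8 choroid plexus markers all had a higher mean in KO, at a summed 569 to 1089 CPM in KO and 23.3 to 903 CPM in KO_WT. The 8 astrocyte markers summed to 4990 to 7218 CPM in KO and 7400 to 8011 CPM in KO_WT, with 6 of 8 lower. All 10 thalamus markers had a higher mean in KO, at a summed 369 to 649 CPM in KO and 274 to 460 CPM in KO_WT. Of 5 hypothalamus markers 4 were tested and 4 of 4 were higher, at a summed 0.967 to 148 CPM in KO and 1.73 to 5.17 CPM in KO_WT, with KO 1 highest. All 8 oligodendrocyte markers had a lower mean in KO (median log2 fold change -0.41), at a summed 4880 to 10716 CPM in KO and 8983 to 11582 CPM in KO_WT. All 6 endothelial and all 6 mural markers were also lower. At an unadjusted p under 0.05, 3 endothelial, 3 mural, 2 astrocyte and 2 microglial markers were lower, where 3.79% of all genes were. At that p 4 of 10 thalamus and 3 of 4 hypothalamus markers were higher, where 3.43% of all genes were. Endothelial markers summed to 241 to 319 CPM in KO and 328 to 357 CPM in KO_WT, and mural markers to 171 to 237 CPM in KO and 216 to 267 CPM in KO_WT. Microglial markers were lower in 7 of 8, at 301 to 319 CPM in KO and 342 to 379 CPM in KO_WT, and all 5 striatal and all 4 blood markers were lower. Interneuron, olfactory bulb and hippocampal markers lay on both sides. Xist, the RNA of the inactive X chromosome in females, was at 570, 677 and 0.138 CPM in KO and at 0.0630, 0.180 and 0.0903 CPM in KO_WT, so that the libraries at high Xist were KO 1 and KO 2. Beyond the fit with region terms, the part of these cells, of these tissues and of sex in the Nduf result was not tested.

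The second comparison asked the same of the knock-in. In KI against KI_WT the Nduf genes lay on both sides, with 22 of 38 higher and 16 lower, against 48.7% of all genes higher. The median log2 fold change was 0.041, beside -0.0054 over all genes. With edgeR no Nduf gene and 0% of all genes passed the adjusted threshold. At an unadjusted p under 0.05, 1 of 38 was higher, with a background of 3.04%, and 1 was lower, with a background of 3.92%. Together they numbered 2, against 1 without KI 2 and 5 without KI 3. DESeq2 called no Nduf gene at the adjusted threshold either. The groups did not overlap for 0 genes in the higher direction, with a background of 6.32%, and for 1 in the lower direction, with a background of 5.87%.

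The gene with the lower libraries was Ndufb4 (chr16:37647170-37654453), a small accessory subunit of the distal membrane arm. It had 17.3, 15.7 and 18.7 CPM in KI and 21.5, 29.7 and 20.1 CPM in KI_WT, so that all KI libraries were below all KI_WT libraries. Its estimate of -0.46 on the log2 scale had a standard error of 0.14 and a 95% interval of -0.78 to -0.15, and its edgeR adjusted p was 0.705. KI_WT 2 carried much of its size: without that library the log2 fold change was -0.27. Ndufb4 had 27.8, 24.4 and 22.8 CPM in KO and 20.7, 19.4 and 23.3 CPM in KO_WT, and so the 3 KI libraries were also below every library of the knockout line.

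Ndufa12 leaned the same way, with 68.8, 52.5 and 61.2 CPM in KI and 70.6, 76.2 and 65.9 CPM in KI_WT. KI 1 lay among the wild types, and the log2 fold change was -0.22 (SE 0.11), or -0.12 without KI 2. Ndufa3, a small membrane protein of the proximal arm, had 55.6, 51.5 and 51.2 CPM in KI and 54.1, 72.5 and 53.4 CPM in KI_WT, with a log2 fold change of -0.19 (SE 0.13). The high mean of its wild types came from KI_WT 2, without which the log2 fold change was -0.027. Ndufa4 had 198, 198 and 195 CPM in KI and 195, 243 and 217 CPM in KI_WT, with a log2 fold change of -0.15 (SE 0.093) and overlapping groups. It was -0.066 without KI_WT 2 and -0.23 without KI_WT 1.

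On the other side stood Ndufv1 (chr19:4007384-4012806), the core subunit that binds NADH and the flavin. It had 151, 161 and 128 CPM in KI and 121, 130 and 134 CPM in KI_WT, with KI 3 among the wild types, and its log2 fold change was 0.20 (SE 0.091), which edgeR gave an adjusted p of 0.717. It was 0.13 without KI 2 and 0.30 without KI 3. Ndufa8 had 67.0, 67.8 and 56.5 CPM in KI and 54.5, 58.6 and 55.4 CPM in KI_WT, again with KI 3 inside the wild-type range, and a log2 fold change of 0.18 (SE 0.084), or 0.27 without KI 3. Ndufa7, of the hydrophilic arm, had 52.2, 59.0 and 48.4 CPM in KI and 40.6, 47.4 and 50.0 CPM in KI_WT, and a log2 fold change of 0.21 (SE 0.11), or 0.13 without KI 2 or without KI_WT 1. In all of these KI 2 was the highest KI library. Ndufa2, a thioredoxin-like subunit of the same arm, had 49.5, 61.6 and 49.3 CPM in KI and 40.7, 54.6 and 45.6 CPM in KI_WT, with a log2 fold change of 0.19 (SE 0.13). It was 0.074 without KI 2, 0.095 without KI_WT 1 and 0.31 without KI_WT 2, and the groups of the last 4 genes overlapped.

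**Figure D3:**
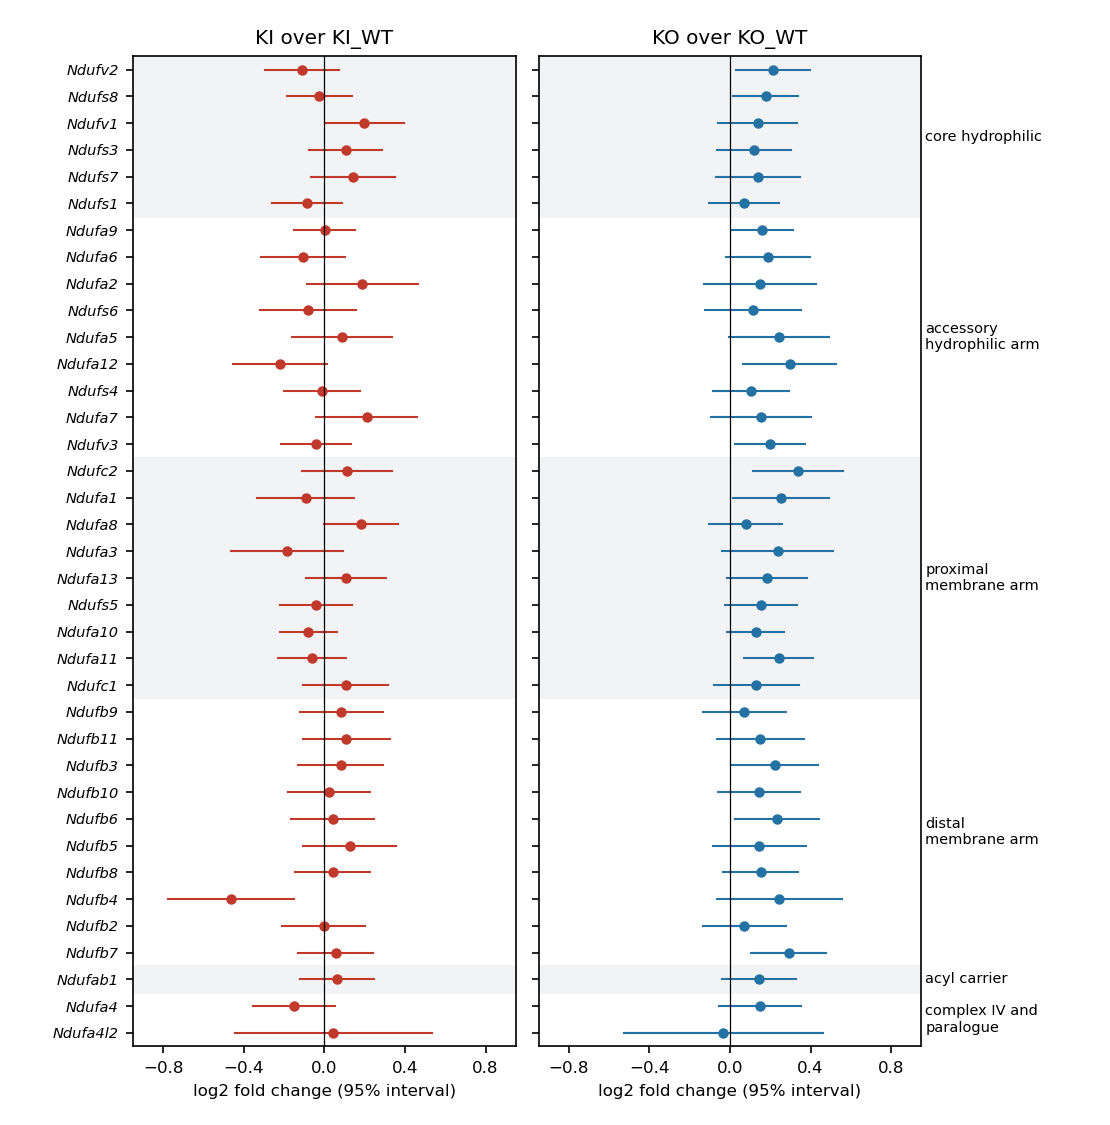
Log2 fold change of 37 of the 38 Nduf genes (points) with its 95% interval (line) in KI over KI_WT (left) and KO over KO_WT (right), ordered by role. On the right 36 of the 37 points are above 0, and the median over all 38 genes is 0.15, while on the left they lie on both sides of 0 with Ndufb4 lowest at -0.46.

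Markers of other regions moved with the knock-in comparison. Of the 10 thalamus markers 9 had a higher mean in KI, at a summed 607, 466 and 478 CPM in KI and 304, 297 and 456 CPM in KI_WT. At an unadjusted p under 0.05, 6 of 10 thalamus markers were higher, where 3.04% of all genes were, and 0 were lower. All KI libraries were above all KI_WT libraries in 6 of 10, with a background of 6.32%. In the other marker lists, 1 hypothalamus, 1 microglial and 1 mural marker were higher at that p. All 10 olfactory bulb markers had a lower mean in KI, at 140, 232 and 168 CPM in KI and 135, 129 and 665 CPM in KI_WT, where KI_WT 3 alone was high. All 8 choroid plexus markers (median log2 fold change 0.39) and the 4 tested hypothalamus markers (median 2.24) had a higher mean in KI, the choroid plexus markers at a summed 774 to 1945 CPM in KI and 19.5 to 1676 CPM in KI_WT and the hypothalamus markers at a summed 8.47 to 127 CPM in KI and 0.905 to 25.1 CPM in KI_WT. Excitatory neuron markers were lower in 9 of 10, at a summed 3496 to 4467 CPM in KI and 3157 to 5011 CPM in KI_WT. Microglial, oligodendrocyte and hippocampal markers were higher in 7 of 8, 6 of 8 and 5 of 6, and those of the other cells, the striatum and blood lay on both sides. Xist was at 0.141, 648 and 856 CPM in KI and at 750, 0.611 and 0.119 CPM in KI_WT. With terms for thalamus, olfactory bulb and choroid plexus in the fit, the log2 fold change of Ndufb4 was -0.22 and 0 Nduf genes had an unadjusted p under 0.05, against 5.26% of all genes in that fit. The part of the other cells and tissues and of sex was not tested.

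The mutants and the wild types of the lines were also compared with each other. KI and KO differ in line as well as in genotype, and these cannot be told apart. In KI against KO 19 of 38 genes were higher, where 50.7% of all genes were, with a median log2 fold change of -0.0044, and no gene passed the edgeR adjusted threshold, which 0.00573% of all genes did. All KI libraries were below all KO libraries in 8 of 38 genes, with a background of 5.97%, and above them in 0, with a background of 4.23%. Ndufa12 had the smallest p, with an edgeR adjusted p of 0.811 and a log2 fold change of -0.45 (SE 0.11), followed by Ndufb4 with -0.54 (SE 0.14). Ndufv2, a core iron-sulfur subunit, and Ndufa10, of the proximal arm, were the others with an unadjusted p under 0.05, at log2 fold changes of -0.19 and -0.15. Those 4 of 38 compare with 3.61% of all genes in that direction, and 0 were higher, with a background of 1.82%. The count was 2 without KI 2.

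Between the wild types 37 of 38 genes were higher in KI_WT than in KO_WT, where 50.1% of all genes were, and the median log2 fold change was 0.14. No gene passed the adjusted threshold (0% of all genes), 3 of 38 had an unadjusted p under 0.05 and a higher mean (background 1.11%), and 0 a lower one (background 0.849%). All KI_WT libraries were above all KO_WT libraries in 7 of 38 (background 3.48%), and below them in 0 (background 3.83%). This median is close to the 0.15 of KO against KO_WT. Both comparisons use the 3 KO_WT libraries, which had among the lowest Nduf levels, so they are not separate evidence. With single libraries left out, the count at an unadjusted p under 0.05 was 0 without KI_WT 2, KI_WT 3 or KO_WT 1. It was 1 without KO_WT 2 or KO_WT 3 and 14 without KI_WT 1. With a term for the animal number range it was 16, and no share of all genes was computed for any of these fits. Ndufa11 shows the low KO_WT values, with 51.0, 56.7 and 58.8 CPM in KI_WT and 49.6, 48.6 and 48.4 CPM in KO_WT, and 51.8, 54.0 and 53.9 CPM in KI.

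Markers moved with the wild-type comparison as well. All 8 astrocyte markers had a lower mean in KI_WT, at a summed 5547 to 7572 CPM in KI_WT and 7400 to 8011 CPM in KO_WT, and so had all 8 oligodendrocyte markers (median log2 fold change -0.34), at 6071 to 9429 CPM in KI_WT and 8983 to 11582 CPM in KO_WT. Microglial and mural markers were lower in 7 of 8 and 5 of 6, and all 5 striatal markers were lower. All 8 choroid plexus markers (median 1.28), all 10 olfactory bulb markers (median 0.99) and the 4 tested hypothalamus markers (median 2.07) had a higher mean in KI_WT. Their sums overlapped between the groups. Choroid plexus markers summed to 19.5 to 1676 CPM in KI_WT and 23.3 to 903 CPM in KO_WT. Olfactory bulb markers summed to 129 to 665 CPM in KI_WT, where KI_WT 3 alone was high, and 133 to 385 CPM in KO_WT. Hypothalamus markers summed to 0.905 to 25.1 CPM in KI_WT and 1.73 to 5.17 CPM in KO_WT. With the region terms in the fit the Nduf median was 0.077, with 34 of 38 higher and 0 at an unadjusted p under 0.05, against 2.26% of all genes. Xist was high in KI_WT 1 among these 6 libraries. Beyond that fit, the part of these cells and tissues and of sex was not tested.

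**Figure D4:**
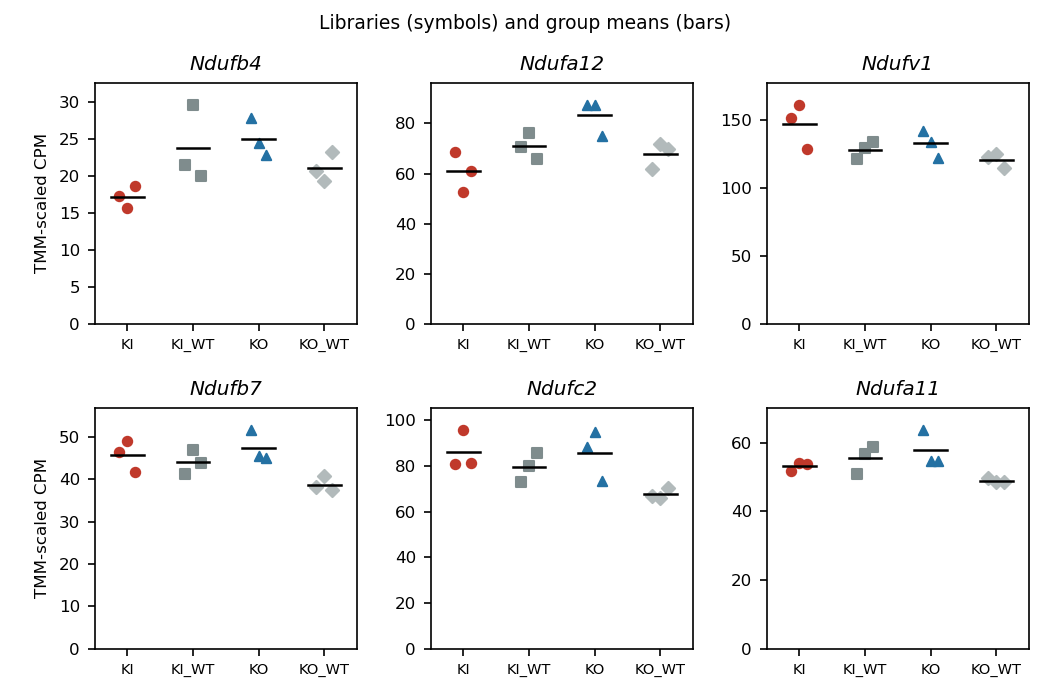
TMM-scaled CPM of 6 Nduf genes in each library (symbols) with the group mean (bar), with axes from 0. Ndufb4 is lowest in the 3 KI libraries and Ndufa12 highest on average in KO, while Ndufb7, Ndufc2 and Ndufa11 are lowest in the 3 KO_WT libraries.

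The test of the difference between the effects, KI over KI_WT minus KO over KO_WT, was negative in 30 of 38 genes and positive in 8, where 49% of all genes were positive, with a median of -0.15. None passed the edgeR adjusted threshold, which 0.00573% of all genes did, with 0.918 as the smallest adjusted p of an Nduf gene. At an unadjusted p under 0.05 there were 9 of 38 genes, all with a negative difference, with a background of 3.21%, and 0 with a positive one, with a background of 2.05%. Ndufb4 had the largest difference, -0.71 (SE 0.20, 95% interval -1.15 to -0.27), and Ndufa12 the next, -0.52 (SE 0.15, 95% interval -0.84 to -0.19). Without KO 1 the median difference was -0.044, and 2 of 38 had an unadjusted p under 0.05. That count was 3 without KI 3 or without KO_WT 1, and 4 without KI_WT 2.

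Most subunit genes of mitochondrial DNA had lower means in KI. In KI against KI_WT 6 of the 7 had a lower mean, 5 of them at an unadjusted p under 0.05, where 3.92% of all genes were lower at that p, with a median log2 fold change of -0.55, and 0 passed the edgeR adjusted threshold. The KI libraries were all below the KI_WT libraries in 2 of 7, where 5.87% of all genes lay that way. The summed level of the 7 was 11450 to 19031 CPM in KI and 18850 to 31136 CPM in KI_WT, so that the sums overlapped. All genes of mitochondrial DNA, these 7 among them, took 5.58%, 4.62% and 6.29% of the counts in KI. In KI_WT they took 7.71%, 9.31% and 6.28%. mt-Nd4, a proton-pumping subunit of the distal arm, had 2718, 1373 and 2802 CPM in KI and 4482, 5107 and 2975 CPM in KI_WT, and its log2 fold change was -0.87 (SE 0.24). That is the lowest log2 fold change of the 7, so mt-Nd4 is their extreme and not a typical case. It is 1 of the 2 genes without overlap, and KI 2 was the lowest library. In KO against KO_WT the median of the 7 was -0.060, with 3 higher and 4 lower.

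Per library, the summed RPKM of the 7 mitochondrial genes was divided by that of the 38 nuclear genes. The ratio was 5.63, 3.78 and 6.67 in KI (5.36 ± 1.47, SD, n = 3) and 9.55, 9.58 and 6.36 in KI_WT (8.50 ± 1.85, SD, n = 3). It was 7.23, 8.05 and 8.74 in KO (8.01 ± 0.757, SD, n = 3) and 10.5, 9.14 and 9.25 in KO_WT (9.62 ± 0.741, SD, n = 3). KI_WT 3 lay within the KI range, while the KO libraries all lay below the KO_WT libraries. With 3 against 3 libraries no exact permutation p can go below 0.1, so this ratio was not tested. In KO the numerator was 20266 to 21205 summed RPKM, against 20651 to 22497 in KO_WT, and the denominator 2427 to 2886, against 2147 to 2320.

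**Figure D5:**
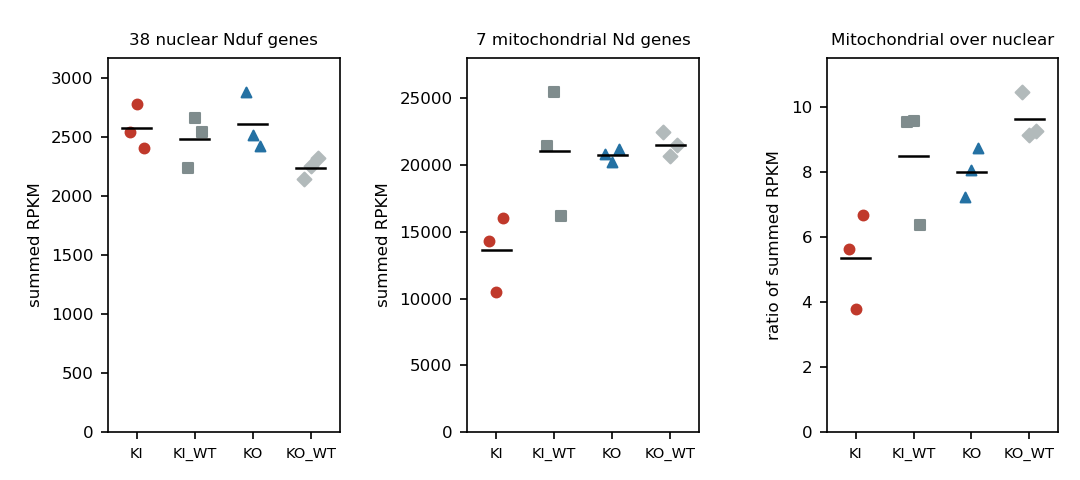
Summed RPKM of the 38 nuclear Nduf genes (left), of the 7 mitochondrial Nd genes (middle) and their ratio (right) in each library (symbols) with the group mean (bar), with axes from 0. The ratio is lowest in KI 2 at 3.78 and highest in KO_WT 1 at 10.5, and KI_WT 3 lies among the KI libraries.

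Nuclear genes of the other complexes were set beside the Nduf genes. All 49 genes listed for complexes II to V, not all of them subunits, had a higher mean in KO than in KO_WT. Their median log2 fold change was 0.16, and 25 of 49 did not overlap, where 5.95% of all genes lay that way. At an unadjusted p under 0.05, 10 of 49 were higher, where 3.43% of all genes were, but 0 passed the edgeR adjusted threshold. In KI against KI_WT 30 of 49 were higher, with a median of 0.043. The medians of both comparisons were thus close to those of the Nduf genes, and the higher means in KO were not limited to complex I.

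The 15 assembly factors, which build the complex but leave it, had medians of 0.057 in KI against KI_WT and 0.038 in KO against KO_WT, with 9 and 14 of 15 higher and 0 past the edgeR adjusted threshold in either. Ndufaf2, singled out after its values were seen because in human assembly it holds the place that Ndufa12 later takes, had 17.0, 14.9 and 17.2 CPM in KI and 19.6, 20.3 and 17.0 CPM in KI_WT. It had 21.7, 19.4 and 19.2 CPM in KO and 17.0, 18.5 and 16.6 CPM in KO_WT. Its log2 fold changes of -0.21 (SE 0.097) in the knock-in line and 0.21 (SE 0.097) in the knockout line had the same signs as those of Ndufa12. They were the lowest and the highest among the 15 assembly factors. The shared signs are thus those of a gene picked by its values, and a link to Ndufa12 was not tested.

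Of the 11 regulators of mitochondrial gene expression, 4 were higher in KI than in KI_WT and 3 were higher in KO than in KO_WT. None passed the edgeR adjusted threshold. In KO against KO_WT their median log2 fold change was -0.054. All KO libraries were below all KO_WT libraries in 3 of 11, with a background of 6.4%, and above them in 0, with a background of 5.95%. Nrf1 and Yy1 were among those 3. Nrf1, whose motif was counted at the gene starts, had 15.6, 13.0 and 15.5 CPM in KO and 17.0, 17.5 and 16.4 CPM in KO_WT. The KO libraries were below the KO_WT libraries, with an edgeR adjusted p of 0.678 and a log2 fold change of -0.21 (SE 0.095), on the other side of 0 from the Nduf genes. Yy1 had a log2 fold change of -0.14 (SE 0.077) in KO against KO_WT, also without overlap, and -0.014 in KI against KI_WT.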

How the data were processed

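Per the submitters' processing notes, the tools were bcl2fastq 2.17, STAR 2.5.0c and Cufflinks 2.2.1, and the genome build was GRCm38. The read counter, annotation and strand setting are not given in the sources used here. The deposited counts are whole numbers per gene. Divided into the counts, the authors' deposited RPKM values imply gene lengths that vary between libraries by at most 0.0789% in 8292 genes. RNA integrity numbers were above 8.0, per the labels. Each library has its own animal number, and replicates were numbered in record order.

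Counts were filtered with filterByExpr, scaled by TMM and fitted with edgeR 4.0.16 quasi-likelihood models in R 4.3.3, with 1 mean per group over 12 libraries (8 residual degrees of freedom), and p-values were adjusted by Benjamini-Hochberg over 17441 genes in each of 5 comparisons. Alternatives were DESeq2 1.42.0, limma 3.58.1 on counts (voom) or log2 RPKM, other scaling and filters, terms for animal number range or region markers, the compared groups alone, and each library left out. CPM values are scaled by TMM, and deviations from a gene's mean use a prior count of 2. Libraries do not overlap where the lowest of one group is above the highest of the other. The scripts were tested on simulated data.

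Values in all libraries are given for the 4 higher and 4 lower genes of smallest p in each line, the 2 with the largest difference of effects, the 2 most and 2 least abundant, and Ndufa4 with Ndufa4l2. Values of 1 of the 38 genes are not reported here singly, though it is in all counts. Genes and lists were chosen with earlier results of these data known. Within groups, libraries varied by 12.6 to 67.8 times what sampling alone gives, so none was a copy. For the Nduf genes other than Ndufa4l2, counting error is small beside the common biological coefficient of variation of 15.7%, a single value fitted to all genes. The medians of the values per gene were lower, at 9.17% for the Nduf genes and 12.8% for all genes, so the margin beside these is smaller. Ndufa4l2 had only 34 to 53 counts in a library, so counting error is not small for it.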

Additional observations from a re-analysis of the deposited data

How the results depend on the processing

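No Nduf gene passed the adjusted threshold in any comparison under any setting tried. The median log2 difference of effects over the Nduf genes was -0.15, and it was -0.060 with limma voom and quality weights and -0.058 with region marker terms, and from -0.19 (without KI_WT 1) to -0.044 (without KO 1) with 1 library left out. For KI_WT over KO_WT the median of 0.14 was 0.23 with a term for the animal number range, 0.071 with limma voom and quality weights, 0.077 with region marker terms, and 0.090 to 0.21 with 1 library left out. The cause was not tested. For KO over KO_WT the median stayed between 0.089 and 0.20. From 1 to 18 Nduf genes had an unadjusted p under 0.05, the 18 with the animal range term. Among the alternatives, the share of all genes at that p was computed only for the fit with region terms. The other counts at that p therefore have no background, in this comparison or the others. For KI over KI_WT the median was -0.012 to 0.094. Ndufa4l2 in KO over KO_WT, at -0.035, was 0.017 on log2(RPKM + 0.1) with or without a filter, 0.011 on log2(RPKM + 1), 0.33 with region terms, and -0.20 to 0.15 with 1 library left out. No paired analysis was possible because each library has an animal number of its own and the replicate numbers follow record order. Over all genes, calls at the adjusted threshold were 0 to 6 for KO over KO_WT, 0 to 2 for KI over KI_WT, 0 to 12 for KI over KO, 0 to 1 for KI_WT over KO_WT and 0 to 5 for the difference.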
